A study of Mus musculus with 9 samples.

Results

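The set described here is the axon guidance ligands and receptors: the semaphorins of classes 3 to 7, plexins, neuropilins, ephrins, Eph receptors, Slits, Robos, netrins, Unc5 receptors and Dcc. Members were chosen by gene symbol and by detection: log2 CPM (CPM, reads scaled to a fixed total per library) had to exceed 0 in 3 or more of the 9 libraries. The symbols matched 69 genes, of which 67 passed, out of 15251 genes passing the same filter. Epha1 and Ntn5 did not pass. The 67 members comprised 34 ligands and 33 receptors.

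Mouse tumours, whose tissue is labelled MB, were profiled by bulk RNA-seq at P8/P9, postnatal day 8 or 9. SG had the genotype fSMO-M2;hGFAPcre, an activated form of the Hedgehog receptor component Smoothened switched on by Cre. YSGr and YSGnr both had the genotype fYap1;fSMO-M2;hGFAPcre, with a floxed allele of Yap1 added, and were marked as rescued and non-rescued. Each group had 3 libraries. All 9 libraries carried SMO-M2 and hGFAPcre, and tissue without them was not analysed here. The Cre driver uses the human GFAP promoter, active in neural stem and progenitor cells, so that cells outside that lineage, such as endothelium and microglia, keep intact alleles. The labels do not define rescue and do not say whether libraries came from separate animals, so p-values measure the spread between these libraries, which may be technical. All 8 markers of granule neuron progenitors and cell division were above 0 log2 CPM in every library. So were all listed markers of granule neurons, Purkinje cells, astrocytes, endothelium and microglia. This detection therefore does not single out a cell type.

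Axon guidance proteins steer growing axons and migrating neurons. Secreted class 3 semaphorins signal through neuropilins paired with plexins, and membrane-bound semaphorins mostly bind plexins directly. Ephrins on one cell bind Eph receptor kinases on its neighbour and signal in both directions, Slits repel through Robo receptors, and netrins attract through Dcc or repel through Unc5 receptors. In the developing cerebellum these systems act on granule cell progenitors, on the inward migration of their daughters and on the neurons that send axons across the midline.

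Libraries differed in depth and make-up. Summed reads came to 17.3 to 29.2 M (mega) in 8 libraries and 9.66 M in YSGnr replicate 1, where 63.4% fell on the genes Yam1 and Lars2. Yap1, the targeted gene, was at 5.04, 5.11 and 5.03 log2 CPM in SG, 4.44, 3.31 and 2.79 in YSGr, and 2.79, 2.57 and 1.99 in YSGnr. It was lower in every floxed library, and least so in YSGr replicate 1. The X-inactivation transcript Xist was high and Y-linked Ddx3y at the floor of the data in all 3 YSGr libraries and in YSGnr replicate 1, and the reverse held in the other 5. YSGr and SG therefore differed in sex-linked transcripts in every library, and the floxed Yap1 allele and sex-linked transcripts cannot be told apart in that comparison. The X-linked members were Plxnb3, Plxna3 and Efnb1. YSGr replicate 3 was the lowest of its group for 46 of the 67 members, with a median absolute difference of 0.81 log2 units from the other two, which differed from each other by 0.15. Over all genes its median absolute difference from them was 0.45. YSGnr replicate 1 was the highest of its group for 46 of the 67 members. Its median absolute difference from the rest of its group was 0.52 for the members and 0.43 over all genes.

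Promoter sequences are shown for 4 called members. Of the 13 called members with a promoter, Epha3 and Ntn3 held the TEAD motif, the site bound by the DNA-binding partners of Yap1. Epha5 and Robo1, with no match, were lower in both floxed groups. Promoters were given for 57 of the 67 members and 13 of the 17 called, and are credited to RefSeq on GRCm38.p6. Slit1, Dcc, Sema3f and Plxna1 had none and were not searched. Each line gives the 250 bases upstream of the RefSeq start, 5′ to 3′ on the strand of the gene, with a TEAD match in capitals. The Epha3 window is chr16:63864176-63864425 (minus strand), that of Ntn3 chr17:24209388-24209637 (minus strand), that of Epha5 chr5:84417383-84417632 (minus strand) and that of Robo1 chr16:72662899-72663148 (plus strand). The Robo1 window lies inside the GENCODE gene, which begins at 72308306, so its RefSeq start lies downstream of that position. The Ntn3 window lies partly inside its GENCODE gene, which reaches 24209531 on the minus strand.
Epha3: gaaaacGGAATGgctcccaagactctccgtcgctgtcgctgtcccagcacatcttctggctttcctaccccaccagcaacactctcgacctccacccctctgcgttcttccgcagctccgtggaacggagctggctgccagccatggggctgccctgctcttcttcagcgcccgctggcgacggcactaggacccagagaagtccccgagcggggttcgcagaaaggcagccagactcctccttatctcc
Ntn3: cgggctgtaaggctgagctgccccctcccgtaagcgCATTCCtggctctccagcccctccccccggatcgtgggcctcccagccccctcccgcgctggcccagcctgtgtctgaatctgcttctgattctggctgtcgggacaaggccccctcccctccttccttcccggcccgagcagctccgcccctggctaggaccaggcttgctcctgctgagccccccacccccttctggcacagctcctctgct
Epha5: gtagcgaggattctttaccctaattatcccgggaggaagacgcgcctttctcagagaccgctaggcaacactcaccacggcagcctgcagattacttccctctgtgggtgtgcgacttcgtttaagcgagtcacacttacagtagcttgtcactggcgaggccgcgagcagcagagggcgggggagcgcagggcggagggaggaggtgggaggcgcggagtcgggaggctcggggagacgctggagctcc
Robo1: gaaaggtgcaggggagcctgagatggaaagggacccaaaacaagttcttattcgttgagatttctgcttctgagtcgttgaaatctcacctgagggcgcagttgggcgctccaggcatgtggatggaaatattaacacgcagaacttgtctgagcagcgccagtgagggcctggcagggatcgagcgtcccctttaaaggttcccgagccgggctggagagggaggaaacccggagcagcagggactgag

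The motif searched was GGAATG on both strands over 300 bases, the 250 shown and the 50 that follow the start. It occurred in 14.7% of all 32851 promoters in the table and in 11% (8 of 73) of the members' promoters. Among the 16 promoters of called members, 2 held it. A GLI motif, GACCACCCA or GGGTGGTC, occurred in 0.807% of all promoters and in none of the members' promoters. The E-box CAGCTG occurred in 16.3% of all promoters, in 15.1% (11 of 73) of the members' and in 4 of the 16 called, those of Ephb3, Plxnb3, Sema3g and Sema4d. The members' shares lay near those of all promoters.

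In SG, levels per length were highest for a few ligands and receptors. Per kilobase of longest transcript, Sema7a, a lipid-anchored semaphorin, had a mean of 122 ± 21.0 CPM (SD, n = 3). Plxnb2, a plexin of granule cell progenitors, had 106 ± 4.09 CPM per kilobase (SD, n = 3), and these means differed by less than the SD of Sema7a. Ntn1, the secreted netrin, followed at 31.5 ± 1.20 CPM per kilobase (SD, n = 3). The other families led with Robo2 (15.1), Ephb2 (13.2), Nrp1 (11.3), Efnb3 (11.2), Epha8 (8.7) and Sema3a (3.04), in CPM per kilobase in SG. The leading genes of the neuropilins and ephrins lay within their spread of each other.

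**Figure D1:**
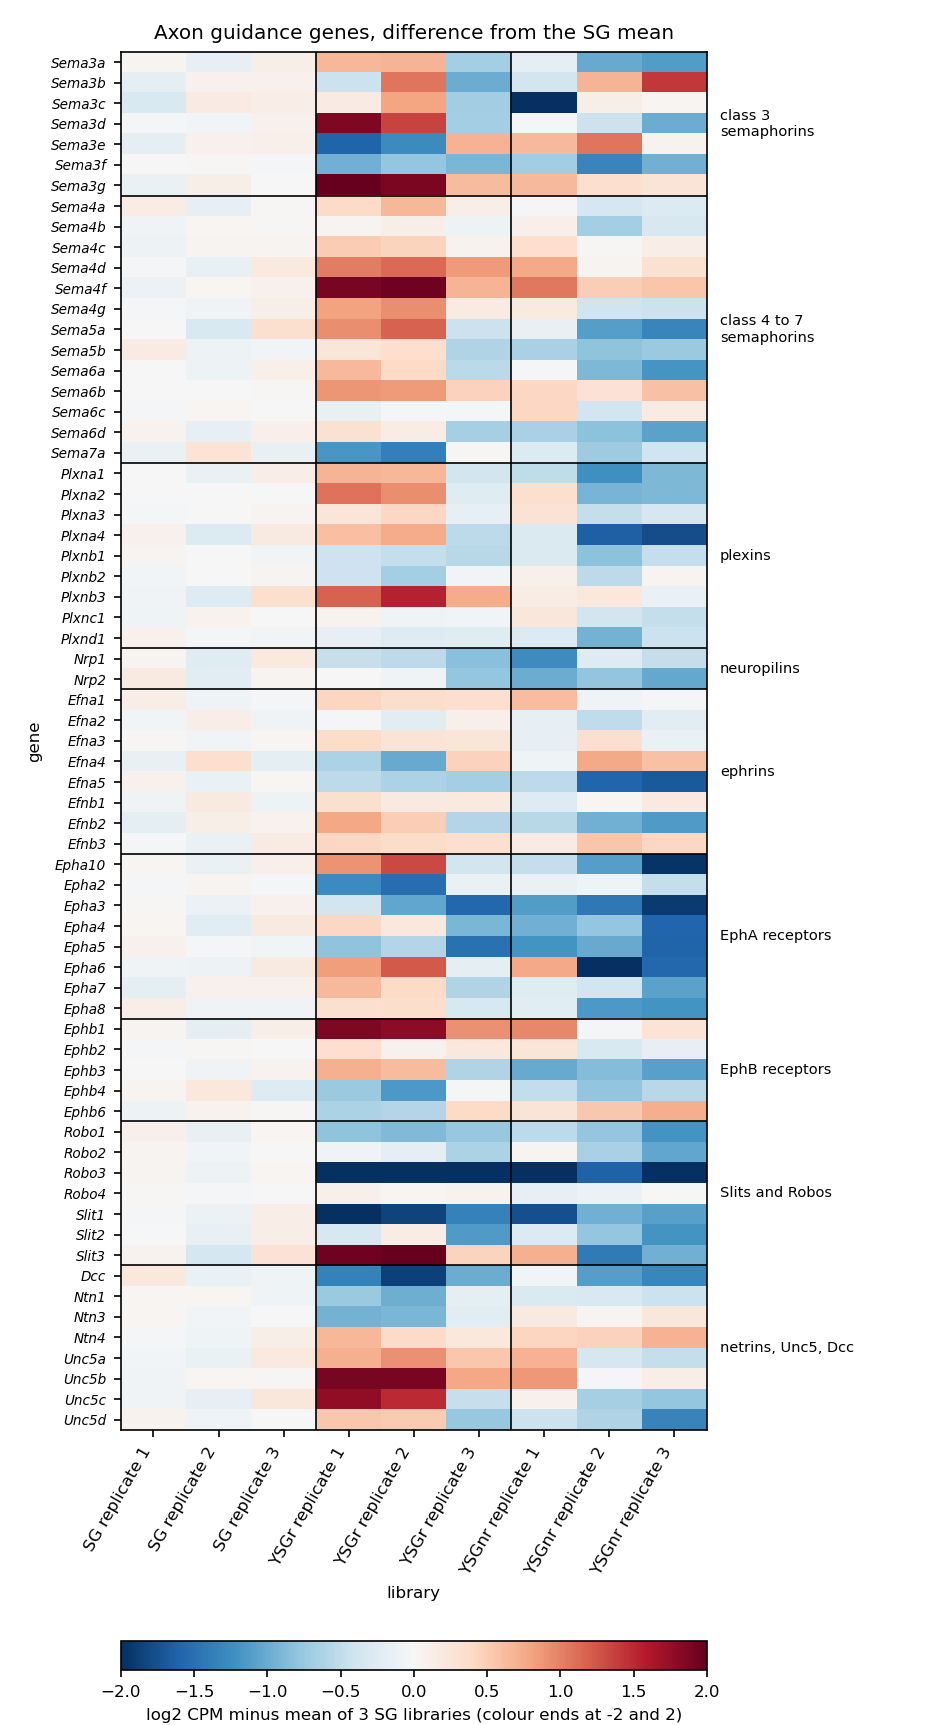
Difference of each of the 67 members (rows, by family) from its SG mean, in log2 units, in each of the 9 libraries (columns). YSGr replicate 3 sits apart from the other YSGr libraries, and most members are below SG in YSGnr replicates 2 and 3.

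Rescued tumours, YSGr against SG. This comparison asks how members differed between rescued floxed-Yap1 tissue and tissue with Yap1 intact. Both directions were present: 7 members were higher, led in size by Sema3g, Unc5b, Ephb1 and Sema4f, and 5 were lower, led by Slit1 and Dcc. The higher set was mostly membrane semaphorins and receptors, and the lower set contained a ligand and a receptor of the Slit system together with a netrin receptor. Calls required an adjusted p below 0.05 in limma, with Benjamini-Hochberg adjustment over all 15251 genes. Over all genes, 6.58% were called higher and 3.97% lower, against 10.4% and 7.46% of the members. The median log2 fold change of the members was 0.10 and that of all genes -0.02. In bulk tissue, fewer cells of a type and less RNA per cell cannot be told apart.

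Slit1, a secreted repellent of the Slit family (chromosome 19, 41600257 to 41743665, mm10), was at 3.88, 3.78 and 4.04 log2 CPM in SG and at 1.42, 2.05 and 2.54 in YSGr. All 3 YSGr libraries lay below all 3 of SG. The log2 fold change was -1.89 (SE 0.31, limma adjusted p = 0.00802), or 3.71-fold lower. It was the one call of the 12 that remained whichever single library was left out, with a highest adjusted p of 0.0450 in limma.

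Robo1, a receptor for Slits (chromosome 16, 72308306 to 73046095), was at 6.89, 6.63 and 6.83 log2 CPM in SG and at 5.97, 5.90 and 6.02 in YSGr. The groups did not overlap and the 3 YSGr libraries were close together. Its log2 fold change was -0.82 (SE 0.17, limma adjusted p = 0.0210). Dcc, the attractive netrin receptor, was at 7.80, 7.47 and 7.51 in SG and at 6.24, 5.73 and 6.61 in YSGr, again without overlap. It fell by 1.40 on the log2 scale (SE 0.33, limma adjusted p = 0.0283).

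Sema3f, a secreted repellent that acts through Nrp2, was at 3.01, 3.03 and 2.98 log2 CPM in SG and at 2.04, 2.22 and 2.09 in YSGr. Replicates lay close together in both groups, and the log2 fold change was -0.89 (SE 0.20, limma adjusted p = 0.0254). Epha5, an Eph receptor for A-type ephrins, was at 4.59, 4.46 and 4.45 in SG and at 3.70, 3.91 and 3.01 in YSGr. YSGr replicate 3 was its lowest library of the group. Its log2 fold change was -0.96 (SE 0.25, limma adjusted p = 0.0393).

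Among the ligands that rose, Sema3g, a secreted class 3 semaphorin known from blood vessels, was at 1.36, 1.62 and 1.51 log2 CPM in SG and at 3.75, 3.38 and 2.13 in YSGr. The log2 fold change was 1.59 (SE 0.37, limma adjusted p = 0.0281), and replicate 3 lay nearest to SG. Sema4f, a membrane-bound class 4 semaphorin, was at 3.86, 4.02 and 4.06 in SG and at 5.87, 5.93 and 4.67 in YSGr, with replicate 3 again nearest to SG. Its log2 fold change was 1.51 (SE 0.32, limma adjusted p = 0.02).

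Sema4d, a class 4 semaphorin made by oligodendrocytes, was at 4.95, 4.84 and 5.20 log2 CPM in SG and at 6.01, 6.13 and 5.85 in YSGr, a log2 fold change of 1.00 (SE 0.19, limma adjusted p = 0.0161). Sema6b, a transmembrane class 6 semaphorin, was at 4.84, 4.84 and 4.88 in SG and at 5.74, 5.70 and 5.31 in YSGr, a log2 fold change of 0.73 (SE 0.15, limma adjusted p = 0.0191). For both genes every YSGr library exceeded every SG library.

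Among the receptors that rose, Ephb1, a receptor for B-type ephrins, was at 5.29, 5.06 and 5.36 log2 CPM in SG and at 7.10, 7.02 and 6.15 in YSGr. Its log2 fold change was 1.52 (SE 0.30, limma adjusted p = 0.0174). Unc5b, a repulsive netrin receptor, was at 5.20, 5.29 and 5.29 in SG and at 7.15, 7.16 and 6.04 in YSGr, and its log2 fold change was also 1.52 (SE 0.32, limma adjusted p = 0.0203). Replicates 1 and 2 of YSGr were near each other for both receptors, and replicate 3 lay between them and SG. Plxnb3, an X-linked plexin that binds class 5 semaphorins, was at 3.87, 3.68 and 4.26 in SG and at 5.12, 5.48 and 4.67 in YSGr, a log2 fold change of 1.15 (SE 0.23, limma adjusted p = 0.0178).

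The neuropilins and ephrins had no call. Nrp1, a co-receptor for class 3 semaphorins, had a log2 fold change of -0.60 (95% interval -1.18 to -0.03, limma adjusted p = 0.169). Efnb3, a transmembrane ephrin, had one of 0.37 (95% interval 0.05 to 0.68, limma adjusted p = 0.134). Non-overlap of the 3 libraries of each group was met by 18 members higher and 16 lower, 26.9% and 23.9%, while 19.5% and 17.3% of all genes met it.

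Markers of other cells moved with these calls. Of 8 oligodendrocyte markers all 8 were called higher in YSGr, with a summed level of 615 to 1175 CPM in SG and 2499 to 3909 in YSGr. Opalin was the marker among them at or below 0 log2 CPM in some library. Of 10 granule neuron markers 9 were called higher, with summed levels of 410 to 467 CPM and 1048 to 1516. Of 8 Purkinje cell markers 4 were called higher, with 836 to 915 and 1397 to 2312 CPM. Of 8 progenitor and cell division markers 4 were called lower, with 3346 to 3469 and 1046 to 2652 CPM, and of 6 neural stem cell markers 3 were called lower, with 1410 to 1500 and 832 to 998 CPM. Of 5 oligodendrocyte progenitor markers 3 were called lower, with 589 to 642 and 355 to 498 CPM, opposite to the oligodendrocyte markers. Of 3 erythrocyte markers all 3 were called lower, with 709 to 1007 and 297 to 537 CPM, and of 9 markers of astrocytes and Bergmann glia 3 were called higher, with 2309 to 2431 and 2291 to 3307 CPM. Of 5 inhibitory interneuron markers and 8 of mural cells and fibroblasts, 1 each was called higher. The part of these cells in the members' changes was not tested. For the endothelium none of 8 markers was called by limma, with summed levels of 243 to 274 CPM in SG and 226 to 257 in YSGr.

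Leaving out a single SG or YSGr library changed the calls far more than the folds. Without SG replicate 1 or 2, or without YSGr replicate 1 or 2, 1 of the 12 calls remained, and without SG replicate 3 there were 3. Calls over all genes fell in the same settings, from 1003 higher and 605 lower to between 244 and 323 higher and between 84 and 129 lower. Over all 9 ways of leaving out a library, the log2 fold change of Robo1 stayed between -0.90 and -0.76 and that of Sema3f between -0.94 and -0.85. The widest range of the 12 was that of Sema3g, from 1.26 to 2.07. Without YSGr replicate 3 all 12 remained and the counts rose to 17 higher and 13 lower, when 14.4% and 13.5% of all genes were called. Without YSGnr replicate 1, all 12 remained among 9 higher and 9 lower, with 9.42% and 6.27% of all genes. All 12 also remained when the trend of each library on transcript length and GC content, described further on, was removed, among 7 higher and 8 lower, with 7.33% and 5.88% of all genes.

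**Figure D2:**
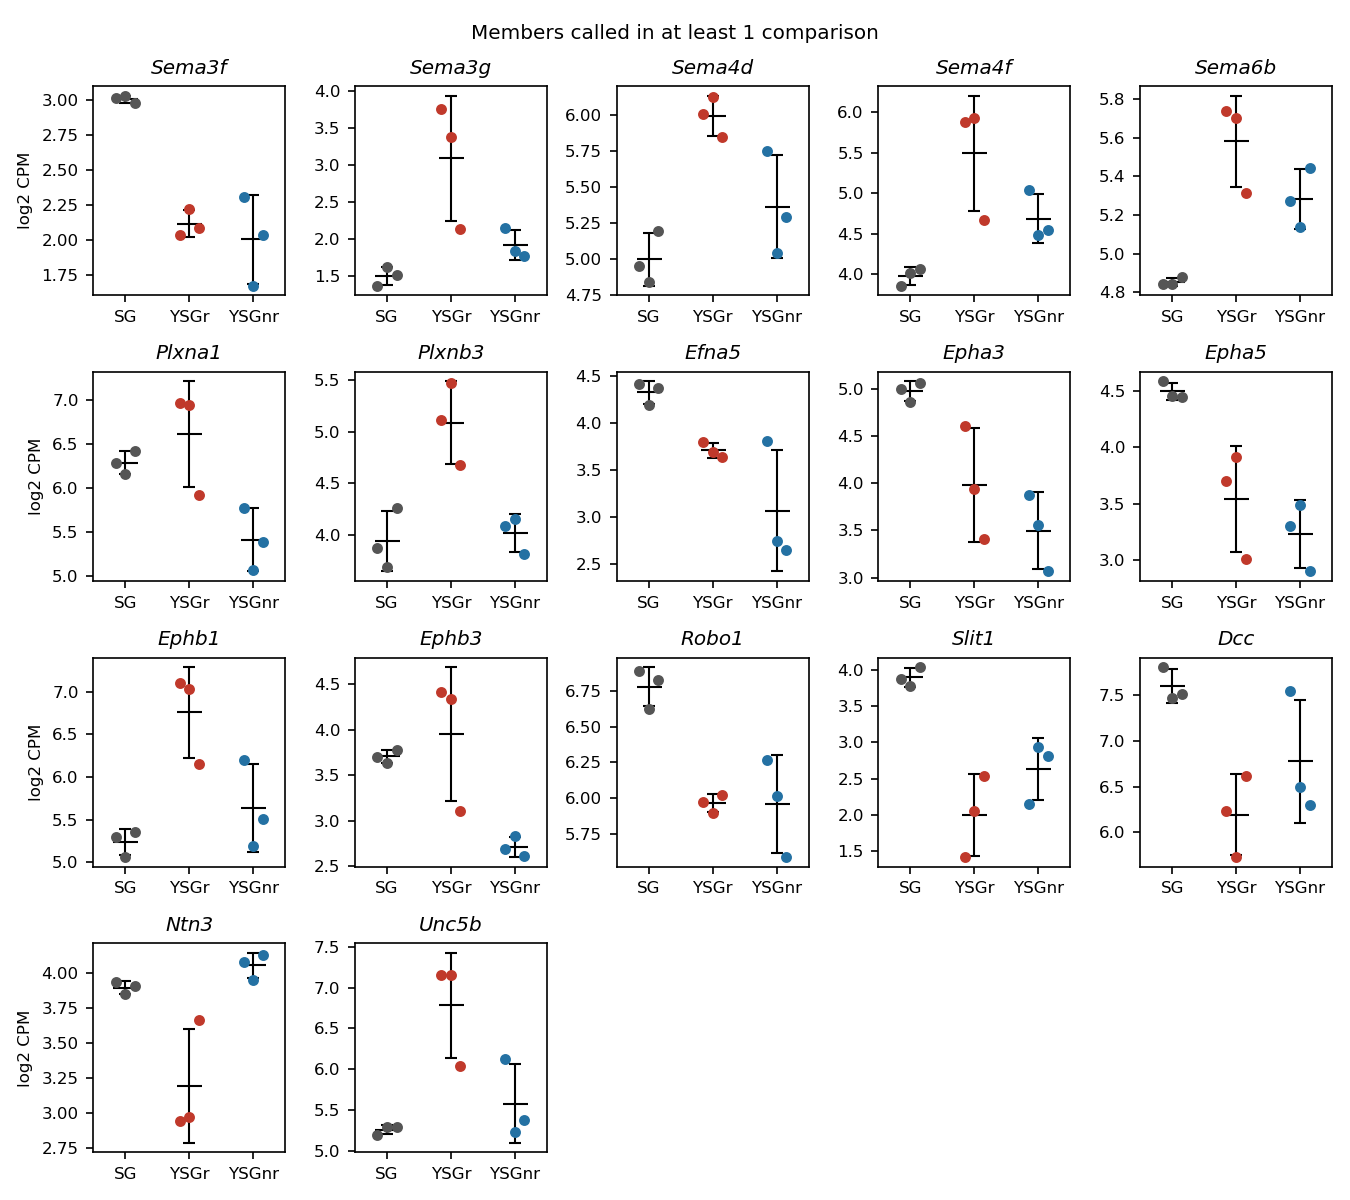
Log2 CPM of the members called in at least 1 comparison, with 1 point per library, a horizontal line at the group mean and bars of 1 SD (n = 3); each panel has its own axis. Slit1, Robo1, Sema3f and Epha5 are below SG in all 6 floxed libraries, while Unc5b and Ephb1 are highest in YSGr replicates 1 and 2.

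Non-rescued tumours, YSGnr against SG. The second comparison sets non-rescued floxed-Yap1 tissue against SG. Here 5 members were called lower and none was called higher. The lower genes were the receptors Epha5, Epha3 and Robo1 and the ligands Efna5 and Sema3f, so an ephrin and a pair of Eph receptors of its own class were among them. Over all genes limma called 1.19% higher and 2.17% lower, against 0% and 7.46% of the members. At an unadjusted p below 0.05, 3 members were higher and 22 lower in limma, while 11.1% and 14.5% of all genes were. Non-overlap was met by 7 members higher and 29 lower, while 16.9% and 21.3% of all genes met it.

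Epha3, a receptor for A-type ephrins whose promoter is shown above, was at 5.01, 4.87 and 5.07 log2 CPM in SG and at 3.87, 3.56 and 3.06 in YSGnr. Every YSGnr library lay below every SG library. The log2 fold change was -1.48 (SE 0.30, limma adjusted p = 0.0356), or 2.80-fold lower. In YSGr it was at 4.61, 3.94 and 3.41, a log2 fold change from SG of -0.996 that did not pass (limma adjusted p = 0.0659).

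Epha5 was at 3.30, 3.49 and 2.90 log2 CPM in YSGnr, a log2 fold change of -1.27 (SE 0.25, limma adjusted p = 0.0326). Efna5, a lipid-anchored ephrin that binds both of these receptors, was at 4.41, 4.19 and 4.37 in SG and at 3.81, 2.74 and 2.64 in YSGnr. Replicate 1 of YSGnr was the nearest to SG, and the log2 fold change was -1.26 (SE 0.28, limma adjusted p = 0.0460). In YSGr Efna5 was at 3.80, 3.69 and 3.64, a change of -0.61 that did not pass (limma adjusted p = 0.201).

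Robo1 was at 6.27, 6.01 and 5.58 log2 CPM in YSGnr, a log2 fold change of -0.83 (SE 0.17, limma adjusted p = 0.0402). Sema3f was at 2.30, 1.68 and 2.04, a log2 fold change of -0.997 (SE 0.20, limma adjusted p = 0.0355). Epha5, Robo1 and Sema3f were called lower in both floxed groups, which were compared with the same 3 SG libraries. Slit1 was at 2.15, 2.94 and 2.81 in YSGnr, a log2 fold change of -1.26 that did not pass (limma adjusted p = 0.0565). Of the members called higher in YSGr, Sema4f, Sema6b and Sema3g also lay above every SG library in all YSGnr libraries. Sema4f was at 5.03, 4.48 and 4.54, Sema6b at 5.27, 5.14 and 5.44, and Sema3g at 2.15, 1.84 and 1.76. None of them passed (limma adjusted p = 0.198, 0.123 and 0.488). Sema4d, Ephb1, Unc5b and Plxnb3 overlapped SG.

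Among families without a call, Nrp2, the co-receptor used by Sema3f, had a log2 fold change of -0.94 (limma adjusted p = 0.0545). Ephb3, a receptor for B-type ephrins, had one of -0.99 (limma adjusted p = 0.0987) and Sema6d, a transmembrane semaphorin, one of -0.85 (limma adjusted p = 0.0813). Plxnb1, the receptor of Sema4d, had a log2 fold change of -0.52 (limma adjusted p = 0.0815). Ntn4, a laminin-related netrin, had a positive one of 0.53 (limma adjusted p = 0.0806).

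The whole set leaned downward in YSGnr. The median log2 fold change of the members was -0.49 and that of all genes -0.01, with 49 of the 67 members below 0. Receptors had a median of -0.57 with 29 of 33 below 0, and ligands a median of -0.26 with 20 of 34 below 0. All 8 EphA receptors were below 0, with a median of -1.12, as were all 7 Slits and Robos, with a median of -0.75. The 8 ephrins divided evenly, with 4 above 0 and 4 below. Against the SG mean, the median member was at -0.15 in YSGnr replicate 1, -0.52 in replicate 2 and -0.47 in replicate 3.

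**Figure D3:**
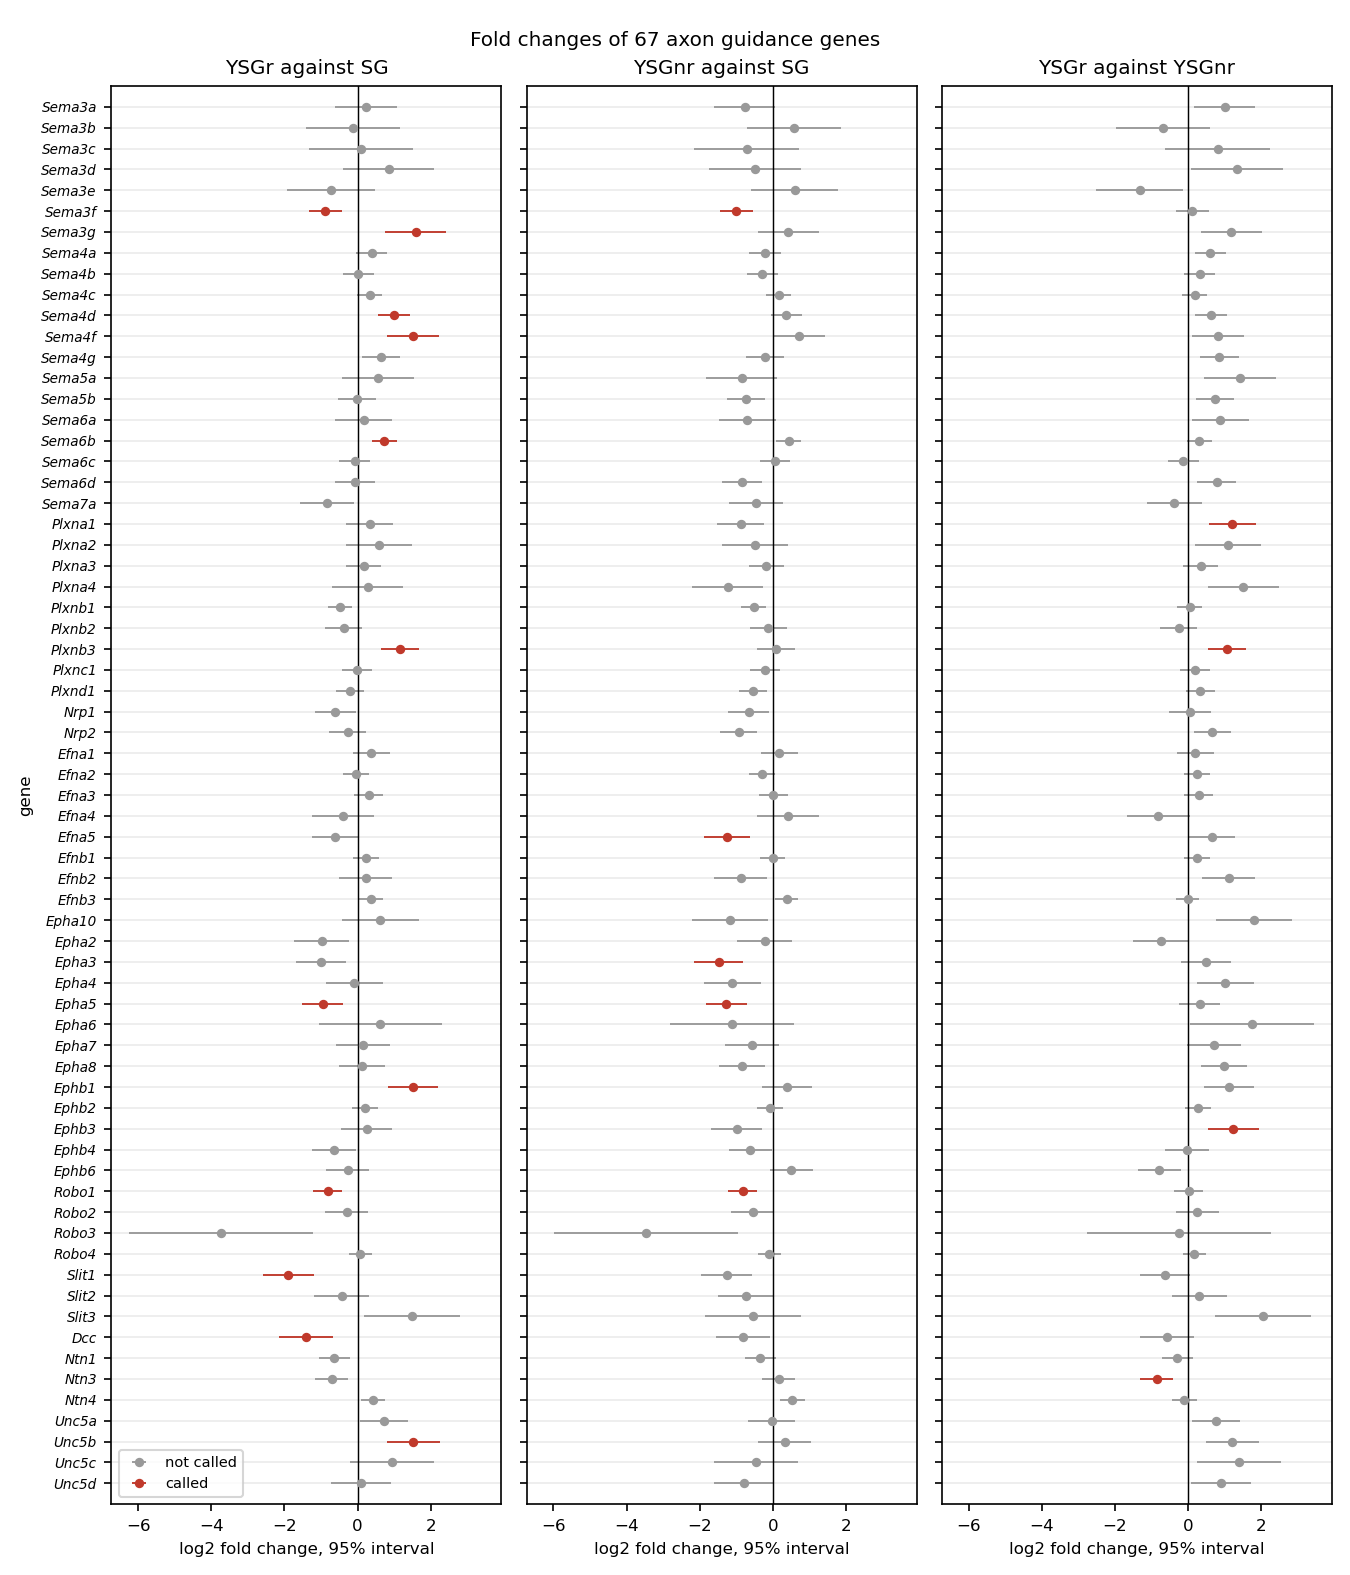
Log2 fold change (horizontal axis) of each of the 67 members (rows) in the 3 comparisons, with its 95% interval from limma, in red where called at an adjusted p below 0.05 and otherwise in grey. The points of all EphA receptors, Slits and Robos lie below 0 in YSGnr against SG.

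Transcript length moved with this lean. The members' longest transcripts had a median of 5038 bases against 3364 for all genes, and a GC content of 56.1% against 49.7%. Across the 14603 genes with a length, Spearman's rho between length and the difference from the SG mean was -0.07, -0.52 and -0.50 in YSGnr replicates 1, 2 and 3. It was 0.15, 0.13 and -0.41 in YSGr replicates 1, 2 and 3. Genes within a library share its depth and preparation, so these values describe libraries. With the trend on length and GC content removed from each library, the members' median in YSGnr was -0.19, with 43 of 67 below 0. All 8 EphA receptors stayed below 0, and of the Slits and Robos, Robo4 was above it at 0.02. Of the 5 calls, Epha3, Epha5, Sema3f and Efna5 remained. Robo1 did not, with its log2 fold change at -0.44 (limma adjusted p = 0.109), and Sema6b was called higher, with 2.31% and 2.66% of all genes called higher and lower.

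**Figure D4:**
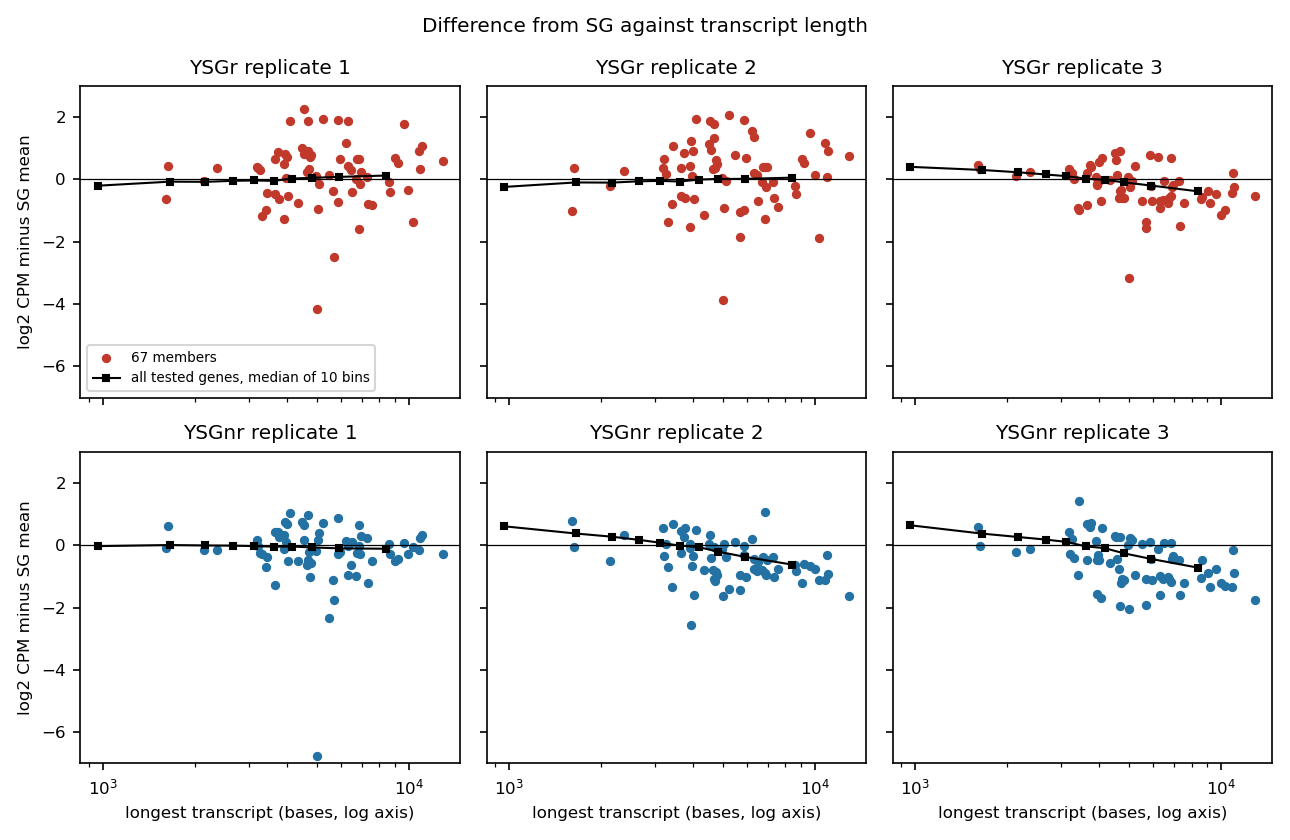
Difference from the SG mean (log2 units) against longest transcript length (bases, log axis) in each floxed library, with 1 point per member and black squares at the median of all genes by bin of length. In YSGr replicate 3 and YSGnr replicates 2 and 3 the black line declines with length; the lowest point in YSGnr replicate 1 is Robo3.

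Cell markers in YSGnr differed from those in YSGr. Of 6 neural stem cell markers 4 were called lower, with a summed level of 612 to 1231 CPM. Of 8 endothelial markers 3 were called lower, with 149 to 197 CPM. Of 10 granule neuron markers 5 were called higher, with 575 to 688 CPM, and of 8 oligodendrocyte markers 2 were, with 847 to 1883 CPM. Of 8 Purkinje cell markers 2 were called higher, of 8 mural cell and fibroblast markers 1 was called lower, and of 9 astrocyte and Bergmann glia markers 1 was higher and 1 lower. None of the 8 progenitor and cell division markers was called by limma, with 2789 to 2995 CPM. The trend on length and GC content was left in for all these markers. Their part in the members' changes was not tested.

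In YSGnr too the calls moved with those of all genes when a library was left out. None of the 5 remained without any 1 of the SG libraries or without YSGnr replicate 2 or 3, and 1 remained without YSGr replicate 1 or 2, which share the estimate of spread. Over all genes, calls fell from 181 higher and 331 lower to 4 or 5 higher and 15 to 19 lower without an SG library, and to 27 to 76 higher and 55 to 160 lower without the other 4 libraries just named. The log2 fold change of Epha5 stayed between -1.40 and -1.10 and that of Epha3 between -1.67 and -1.27 over all 9 ways of leaving out a library. Without YSGnr replicate 1, the shallow library, all 5 remained and the counts rose to 20 lower and 2 higher, Efnb3 and Ntn4, when 11.3% and 10.6% of all genes were called lower and higher. Without YSGr replicate 3 all 5 remained among 19 lower and 4 higher, with 10.3% and 6.94% of all genes.

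Robo3 was singled out after its values were seen. It encodes the divergent Robo that lets commissural axons cross the midline, on chromosome 9 at 37415669 to 37433246 (minus strand). It was at 3.30, 3.14 and 3.28 log2 CPM in SG, at -0.91, -0.63 and 0.07 in YSGr and at -3.52, 1.62 and 1.19 in YSGnr. Behind these values stood about 176, 241 and 310 reads in SG, 13, 15 and 22 in YSGr, and 0, 72 and 46 in YSGnr. All 6 floxed libraries were below all 3 SG libraries, and a count of 0 in YSGnr replicate 1 allows up to 0.766 CPM (3 reads, counting error only).

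With all 9 libraries Robo3 did not pass in YSGr (log2 fold change -3.73, limma adjusted p = 0.0643) or in YSGnr (-3.47, limma adjusted p = 0.104). Without YSGnr replicate 1 it passed in both, at -3.73 in YSGr (limma adjusted p = 0.000492) and at -1.83 in YSGnr (limma adjusted p = 0.0113). Between the floxed groups, YSGr relative to YSGnr, the log2 fold change was -0.26 with all 9 libraries (limma adjusted p = 0.883) and its sign depended on the library left out. It was -1.90 without YSGnr replicate 1 (limma adjusted p = 0.0141), 0.67 without replicate 2 (limma adjusted p = 0.712) and 0.46 without replicate 3 (limma adjusted p = 0.831). Robo4, the endothelial Robo, is its neighbour on the opposite strand (37401897 to 37415115). It was at 3.14, 3.10 and 3.13 in SG, 3.22, 3.17 and 3.20 in YSGr, and 2.95, 3.00 and 3.12 in YSGnr.

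Rescued against non-rescued tumours. The third comparison, within a single labelled genotype, asks where rescued and non-rescued tissue differed. Yap1 itself was 2.09-fold higher in YSGr, without overlap but without passing (log2 fold change 1.06, limma adjusted p = 0.0959). Its part in the calls below was not tested. YSGr was higher for 3 members, the receptors Plxnb3, Plxna1 and Ephb3, and lower for 1, the netrin Ntn3. Over all genes 5.09% were called higher and 0.879% lower by limma, against 4.48% and 1.49% of the members, shares near the background. All 3 YSGr libraries and YSGnr replicate 1 had high Xist. Cell markers moved with this comparison as well. Higher in YSGr were 9 of 10 granule neuron, 7 of 8 Purkinje cell, 4 of 5 inhibitory interneuron, 3 of 8 endothelial, 3 of 8 mural cell and fibroblast and 2 of 9 astrocyte and Bergmann glia markers. Of 3 erythrocyte markers 1 was lower, and of 5 oligodendrocyte progenitor markers 1 was higher and 1 lower. Summed levels in YSGr and YSGnr were 1048 to 1516 and 575 to 688 CPM for granule neurons, 1397 to 2312 and 566 to 1025 CPM for Purkinje cells and 161 to 368 and 71.5 to 125 CPM for interneurons. They were 226 to 257 and 149 to 197 CPM for endothelium and 256 to 447 and 196 to 222 CPM for mural cells and fibroblasts. None of the 8 oligodendrocyte or the 8 progenitor and cell division markers was called, yet their summed levels did not overlap. In YSGr and YSGnr these were 2499 to 3909 and 847 to 1883 CPM for oligodendrocytes. For progenitors and cell division they were 1046 to 2652 and 2789 to 2995 CPM. The part of these cells in the 4 calls was not tested.

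Plxnb3 was at 4.08, 4.15 and 3.81 log2 CPM in YSGnr, within the range of SG, and above it in every YSGr library. Its log2 fold change between the floxed groups was 1.07 (SE 0.23, limma adjusted p = 0.0396). Plxna1, a plexin that pairs with neuropilins, was at 6.97, 6.95 and 5.92 in YSGr and at 5.78, 5.06 and 5.39 in YSGnr, with SG at 6.29, 6.16 and 6.42. The log2 fold change was 1.20 (SE 0.29, limma adjusted p = 0.0458), and YSGr replicate 3 lay below SG. An antisense gene, Gm26811, overlaps 10.7% of the exon bases of Plxna1, and no source used here states whether counting used strand.

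For Ephb3 the YSGr libraries had log2 CPM of 4.41, 4.34 and 3.10 and the YSGnr libraries 2.69, 2.83 and 2.61, a log2 fold change of 1.24 (SE 0.31, limma adjusted p = 0.0498). SG lay between, at 3.70, 3.64 and 3.78, except that YSGr replicate 3 was below it. Ntn3, a netrin on chromosome 17 whose exons overlap Tbc1d24 over 1.74% of their bases, was at 3.93, 3.85 and 3.91 in SG, 2.95, 2.98 and 3.66 in YSGr and 4.08, 3.95 and 4.13 in YSGnr. Its log2 fold change, YSGr relative to YSGnr, was -0.86 (SE 0.20, limma adjusted p = 0.0445).

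In the other families the lowest p belonged to Epha10 (log2 fold change 1.80, limma adjusted p = 0.0526), Sema4g (0.86, 0.0583), Slit3 (2.05, 0.0632), Efnb2 (1.11, 0.0656), Sema3g (1.17, 0.0772) and Nrp2 (0.66, 0.0877), none past the threshold. The members' median log2 fold change was 0.34 and that of all genes 0.01, with 51 of 67 above 0. With the trend on length and GC content removed, the median was 0.30 with 39 above 0, and Plxna1 and Ntn3 remained among 4 higher and 4 lower, with 6.97% and 5.53% of all genes called. Non-overlap was met by 10 members higher and 1 lower, while 15% and 7.46% of all genes met it. The 4 calls were all lost without any 1 SG library, without YSGr replicate 1 or 2, and without YSGnr replicate 2 or 3. In those settings between 1 and 8 genes of all 15251 were called higher and between 0 and 3 lower, against 776 and 134 with all 9 libraries. The log2 fold change of Plxnb3 stayed between 0.88 and 1.28 and that of Ntn3 between -1.09 and -0.73. All 4 calls remained without YSGr replicate 3, with 30 members higher and 8 lower when 22.2% and 20.6% of all genes were called. They also remained without YSGnr replicate 1, with 26 higher and 3 lower against 16.8% and 14.2% of all genes. With the libraries scaled to equal medians no member was called higher by limma and 1 was lower, with 1.72% and 0.354% of all genes. After quantile normalization 1 was higher and 1 lower, with 3.42% and 0.957% of all genes.

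A wider pathway list held further cues, co-receptors and intracellular effectors. Plxdc1 and Plxdc2 were listed with the plexin effectors, a role not shown here. Of these 92 other genes, 88 were tested. In YSGr 7 were called higher and 10 lower, with a median log2 fold change of 0.03. Over all genes limma called 6.58% higher and 3.97% lower. The lowest p-values belonged to Rgma, the membrane-anchored ligand of neogenin (-1.06, limma adjusted p = 0.00335), Chn2, a Rac-inactivating protein rich in granule neurons (2.22, 0.00335), and Plxdc1 (1.39, 0.0106). They were followed by the Rac effector kinase Pak1 (1.22, 0.0128), Rgmb (-1.01, 0.0165) and the actin-binding Ablim3 (1.39, 0.0167). Both repulsive guidance molecules, Rgma and Rgmb, were thus among the lower genes.

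In YSGnr 1.19% of all genes were called higher and 2.17% lower. Of the 88 none was called higher and 5 were lower in limma, with a median log2 fold change of -0.28. These were Rgma (-1.38, limma adjusted p = 0.00342), the vascular growth factor receptor Kdr (-1.37, 0.0130), Farp1 (-0.65, 0.0324), the actin regulator Enah (-0.85, 0.0328) and Wasl (-0.82, 0.0446), an activator of actin branching. The trend on length and GC content was left in for this median and these calls. Kdr is also 1 of the endothelial markers above, and Chn2 is 1 of the granule neuron markers. Between the floxed groups 9 were higher in YSGr and none lower, with a median of 0.34, while 5.09% and 0.879% of all genes were. Those with the lowest p were Chn2 (log2 fold change 1.71), Kdr (1.15), Ablim3 (1.57), Rap1gap (1.19), Pak1 (1.20) and Ablim1 (1.21), with limma adjusted p-values from 0.0267 to 0.0399.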

How the data were processed

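The authors deposited 1 table of log2 CPM for 17482 genes in 9 libraries, with an implied added count of 2 reads, so that fold changes of low genes are understated. Per the submitters' processing notes, Trimmomatic, RSEM, Bowtie2, Picard and edgeR were used on mm10, and no source used here states versions, annotation or strandedness. Reads did not come out whole (53.6% to 70.3% within 0.02), so no count test was run. limma 3.58.1 in R 4.3.3 was fitted with a mean-variance trend to the 15251 genes with log2 CPM above 0 in at least 3 libraries, over all 9 libraries with 3 group means, two-sided, with Benjamini-Hochberg adjustment over all genes, and tested on simulated data. Lengths came from GENCODE M21, which matched 95.6% of symbols. The text names every called member, the member of lowest p in each family without a call, the member with the highest level per length, and up to 6 called pathway genes per comparison. Members and lists were chosen with earlier results of these data known. A total of 22 other settings were tried: each library left out, and other filters, scalings, added counts, fits, blocks and weights. YSGnr replicate 1 had an effective library size of 3.92 M (mega) reads, the others 18.1 to 32.3 M, so low genes are least precise there.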

Additional observations from a re-analysis of the deposited data

Results flagged for a closer look

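In 4 members the differences from SG in YSGr and in YSGnr differed from each other by the contrast of the floxed groups in limma. The SG mean drops out of this contrast, so these are the YSGr against YSGnr calls given above and add no further support. All 4 were lost without any 1 SG library, YSGr replicate 1 or 2, or YSGnr replicate 2 or 3. With the 6 libraries of these groups alone, 0 of 15251 genes were called. The excess of the YSGr change over the YSGnr change was 1.07 log2 units for Plxnb3 (adjusted p = 0.0396), with changes of 1.15 and 0.08. For Plxna1 it was 1.20 (adjusted p = 0.0458), with changes of 0.33 and -0.88. For Ephb3 it was 1.24 (adjusted p = 0.0498), with changes of 0.25 and -0.99. For Ntn3 it was -0.86 (adjusted p = 0.0445), with changes of -0.70 and 0.16. Groups of 3 libraries were too small to look for single outlying libraries by gap.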

How the results depend on the processing

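No called member changed direction, in the comparison in which it was called, under any of the 22 settings tried. Of 748 values of single genes under them, 545 stayed on their side of the threshold, 53 came to pass it and 150 lost it. The 748 include named members not called in the main fit, which could not lose a call. All 150 losses thus fell on the called ones. Members called in YSGr against SG numbered 7 higher and 5 lower, and from 0 to 17 higher and 1 to 13 lower with 1 library left out. Those in YSGnr against SG numbered 0 and 5, with ranges of 0 to 4 and 0 to 20. Those in YSGr against YSGnr numbered 3 and 1, with ranges of 0 to 30 and 0 to 8. Over all genes these ranges were 244 to 2198 higher and 84 to 2059 lower in YSGr against SG. They were 4 to 1613 and 15 to 1719 in YSGnr against SG, and 1 to 3387 and 0 to 3141 between the floxed groups. Array weights gave 36 and 19, 6 and 40, and 43 and 10 in that order, with the lowest weights on YSGr replicate 3 (0.104) and YSGnr replicate 1 (0.117). Of all 15251 genes, 4700 and 4961, 3655 and 3661, and 4993 and 4974 were then called. Leaving both of these out gave 30 and 19, 6 and 42, and 41 and 9, with 3577 and 3979, 4061 and 4013, and 4873 and 4994 of all genes. With each comparison's 6 libraries alone, YSGr gave 8 higher and 8 lower, YSGnr 1 and 13, and the floxed groups 0 and 0. Of all genes, limma then called 1187 and 730, 407 and 783, and 0 and 0. With the length and GC trend removed, YSGr gave 7 higher and 8 lower, YSGnr 1 and 4, and the floxed groups 4 and 4. Of all 14603 genes, 1070 and 859, 338 and 389, and 1018 and 808 were called. Between the floxed groups, no filter gave 1 higher and 0 lower and no mean-variance trend 1 and 0. Over all genes these settings gave 609 and 72, and 501 and 67. Median scaling gave 0 higher and 1 lower there, with 262 and 54 of all genes. Quantile normalization gave 1 and 1, with 521 and 146. No mean-variance trend gave 0 higher and 3 lower in YSGnr, with 167 and 264 of all genes. The cause was not tested.

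Same-numbered libraries correlated at -0.23 to 0.24 in their deviations from group means. The best match in another group had the same number in 6 of 18 cases. The labels do not say what the numbers mean, and 9 libraries are too few to exclude a pairing by number. The main fit treated the libraries as unpaired. The replicate block gave 7 higher and 5 lower in YSGr, 0 and 4 in YSGnr, and 7 and 1 between the floxed groups. Of all 15251 genes, 763 and 431, 106 and 235, and 707 and 153 were then called. With the length and GC trend also removed, the block gave 6 higher and 9 lower, 0 and 1, and 4 and 3 in turn. Of all 14603 genes in that setting, 891 and 647, 147 and 193, and 842 and 799 were called. Depth limits Robo3 and other low members most in YSGnr replicate 1.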
